A study of Mus musculus with 8 samples.

Results

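Fibroblasts of the meninges, the membranes that wrap the brain, lay down a collagen-rich matrix and take part in exchange between the cerebrospinal fluid and the tissue. Small leucine-rich proteoglycans bind collagen and set how its fibrils assemble, and the cells' membrane transporters clear metabolites and transmitters from the fluid. The genes described here are 8 that such cells are known to transcribe: the small leucine-rich proteoglycan genes Ogn, Dcn and Lum, the procollagen C-proteinase gene Bmp1, the growth factor gene Igf2 and its binding protein gene Igfbp2, the prostaglandin D2 synthase gene Ptgds and the GABA and taurine transporter gene Slc6a13. They were picked by name, with lower values under rosemary extract than under water as part of the reason, and are 8 of 19505 genes with a named row; each had exactly 1 row. Several are not particular to fibroblasts: Ptgds is also known from oligodendrocytes and choroid plexus, Igf2 and Igfbp2 from choroid plexus, and Bmp1 from many cell types.

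RNA came from the brains of male ICR mice, an outbred strain, bought at 8 weeks of age and used after 1 week of acclimatization. There were 4 groups of 2 arrays: water without the tail suspension test (TST, a brief inescapable stressor), water with TST, and rosemary extract (RE) at a low and at a high dose, both with TST. Water, or RE dissolved in it, was given by mouth for 7 days, with 7 mice assigned to a group. Low-dose mice received 10 mg/kg; for the high dose the titles and the treatment protocol state 100 mg/kg, a separate label field 50 mg/kg. One label field gives the tissue as limbic system and another as hippocampus. One field also marks water without TST as the positive and water with TST as the negative control; the titles were followed here. It is not stated whether the 2 RNA samples of a group were single mice or pools, so every p-value measures only the spread between these samples. All values are log2 values normalized by robust multichip averaging (RMA), and the number of arrays limits their precision.

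Since all 8 genes were chosen with their extract and water values in view, those differences are given as descriptions without a test, and so are the TST differences, which use the same water with TST arrays. Only the comparison of the 2 doses was tested for them. Because the tissue was bulk RNA, fewer cells of a type and less RNA per cell cannot be told apart.

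Over all rows, 1 array differed most from the others: water with TST replicate 2 had correlations of 0.967 to 0.978 with them, against 0.983 to 0.993 among the 7. Markers of cerebellar neurons, which neither tissue label would hold, were high on it. The synaptic organiser gene Cbln1 was at 16.44 there, at 14.47 on water without TST replicate 1, and between 9.64 and 10.51 on the other 6 arrays. Averaged over 9 cerebellar markers, the deviation from the 8-array mean was 4.95 and 3.0 on these 2 arrays, against -1.76 to -0.57 elsewhere. Forebrain excitatory markers were measured on every array, with Camk2a between 14.52 and 18.11, and were lowest on water with TST replicate 2, where their mean over 7 genes was 2.54 below the 8-array mean (-2.54). The differences of the 8 genes are also given without these arrays, and the medians of the wider fibroblast list without both.

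Promoters of the genes whose values lay lower on every extract array than on either water with TST array are printed where the RefSeq promoter table (GRCm38.p6) holds them, to show the regulatory sequence of the genes the results turn on. Of the 8 genes, 5 had entries; Dcn, Lum and Bmp1 had none. Each window runs from 250 bases before to 50 after a transcript start; for Slc6a13 the first of 3 starts is shown. Capitals mark CANNTG (an E-box, the core that basic helix-loop-helix factors bind) and TATAAA, each searched on both strands.
Ogn, chr13:49607765-49608064, plus strand: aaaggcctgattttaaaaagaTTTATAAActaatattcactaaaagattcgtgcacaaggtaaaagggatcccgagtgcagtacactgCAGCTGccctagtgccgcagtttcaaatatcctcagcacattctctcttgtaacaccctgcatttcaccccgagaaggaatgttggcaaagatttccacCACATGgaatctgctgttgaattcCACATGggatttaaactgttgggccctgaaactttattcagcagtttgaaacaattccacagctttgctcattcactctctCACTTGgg
Ptgds, chr2:25469700-25469999, minus strand: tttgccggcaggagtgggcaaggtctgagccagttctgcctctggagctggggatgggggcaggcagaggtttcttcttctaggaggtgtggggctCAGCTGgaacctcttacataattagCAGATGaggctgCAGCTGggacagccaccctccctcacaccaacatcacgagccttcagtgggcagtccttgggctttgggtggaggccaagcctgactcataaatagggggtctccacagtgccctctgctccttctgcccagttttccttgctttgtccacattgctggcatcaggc
Slc6a13, chr6:121300038-121300337, plus strand: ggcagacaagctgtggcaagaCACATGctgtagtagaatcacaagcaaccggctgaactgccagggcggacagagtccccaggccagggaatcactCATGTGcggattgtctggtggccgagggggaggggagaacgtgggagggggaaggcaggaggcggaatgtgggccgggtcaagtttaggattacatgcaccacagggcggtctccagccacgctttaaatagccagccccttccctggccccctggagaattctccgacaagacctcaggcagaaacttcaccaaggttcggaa

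The Ogn window holds 4 CANNTG matches, the Ptgds window 3 and the Slc6a13 window 2; 72.3% of the 32851 windows of 300 bases in the table hold at least 1. TATAAA occurs in the Ogn window as 2 overlapping matches, 1 on each strand, and in neither of the other 2 windows, against 13.6% of all windows. None of the 3 windows holds CCAAT (37.4% of all windows) or GTAAACA, a forkhead core (3.6%). The windows of the later Slc6a13 starts, not shown, each hold 1 CCAAT match. The Ptgds window is poor in CG dinucleotides, with 2 against a lower quartile of 3 over all windows. The Ogn window, with 4, and the Slc6a13 window, with 11, lie between the quartiles of 3 and 20 (median 7). These are matches of letters, mostly in 1 window per gene, and say nothing of binding.

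Of the matrix proteoglycans, Ogn (osteoglycin, or mimecan) showed the clearest separation. Its values were 10.81 and 9.75 in water without TST and 10.34 and 10.19 in water with TST. They were 8.89 and 9.09 in low-dose RE and 9.63 and 8.73 in high-dose RE. All 4 water arrays were thus above all 4 extract arrays, although high-dose replicate 1 lay only 0.12 under the lower water array without TST. Against water with TST the difference was -1.28 (SE 0.405, n = 2 arrays per group) for the low dose and -1.09 (SE 0.405) for the high dose. The 2 water groups had nearly equal means, 10.28 ± 0.75 and 10.265 ± 0.11 (SD, n = 2 each), a TST difference of -0.015. Without water with TST replicate 2 the extract differences were -1.35 and -1.16. The means of the 2 RE groups, 8.99 ± 0.14 and 9.18 ± 0.64, differed by less than the spread of the high-dose pair.

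Dcn (decorin), which binds collagen fibrils and growth factors, ran closely with Ogn. The arrays of water without TST were at 11.94 and 11.07, and those of water with TST at 11.99 and 11.29. Low-dose RE arrays were at 10.58 and 10.78, and high-dose RE arrays at 11.25 and 9.88. High-dose replicate 1 lay 0.04 below the lower water with TST array and above water without TST replicate 2, so the extract arrays overlapped the unstressed water group. The differences from water with TST were -0.96 (SE 0.484) for the low and -1.08 (SE 0.484) for the high dose. High-dose replicate 2 set much of the latter, which was -0.39 without it and -1.76 without replicate 1. Without water with TST replicate 2 the low and high doses were at -1.31 and -1.43.

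Lum (lumican), a relative of Dcn that also regulates collagen fibrils, did not follow them. Its values were 8.28 and 7.53 in water without TST, 7.55 and 7.79 in water with TST, 7.99 and 7.36 in low-dose RE and 7.82 and 7.75 in high-dose RE. The groups overlapped throughout. The differences from water with TST were 0.005 and 0.115 (SE 0.324 each), and 0.125 and 0.235 without water with TST replicate 2. Detection calls were not used here, so whether this row measured a transcript above background is not known.

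Bmp1 encodes the protease that trims procollagens and also matures several small leucine-rich proteoglycans. It had the largest range of the 8 genes over the arrays, 3.41 log2 units. Water with TST replicate 2 was at 11.74 and water without TST replicate 1 at 10.38, the same 2 arrays that were high in cerebellar markers. The partner arrays of these groups were at 9.47 and 8.87, low-dose RE at 9.45 and 8.98 and high-dose RE at 8.33 and 8.56. The extract arrays were below both water with TST arrays, by as little as 0.02 at the closest. Against water with TST the low dose was at -1.39 and the high dose at -2.16 (SE 0.713 each). Without water with TST replicate 2 these were -0.26 and -1.03. Over the 8 arrays Bmp1 had r = 0.893 (rho 0.45) with the mean of the cerebellar markers; without the 2 arrays farthest from that mean's median r was -0.43. With the mean of the cerebellar markers Ogn had r = 0.667 (rho 0.786), Dcn 0.436 (0.690), Ptgds 0.532 (0.690) and Slc6a13 0.607 (0.711). Lum was at 0.451 (0.143), Igf2 at 0.112 (0.262) and Igfbp2 at -0.844 (-0.333). Without those arrays r was 0.499 for Ogn, 0.347 for Dcn, 0.380 for Ptgds and 0.169 for Slc6a13. For Lum, Igf2 and Igfbp2 it was then -0.261, -0.224 and 0.329. Whether the cerebellar content set the water values of Bmp1 or of these other genes was not tested.

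Ptgds makes prostaglandin D2 and, as beta-trace, is among the abundant proteins of cerebrospinal fluid. Its values were 16.76 and 15.76 in water without TST and 16.42 and 16.08 in water with TST. In low-dose RE they were 15.35 and 14.22, and in high-dose RE 15.93 and 15.11. The low-dose arrays were below all water arrays, whereas high-dose replicate 1 lay above water without TST replicate 2. The differences from water with TST were -1.47 (SE 0.478) for the low and -0.73 (SE 0.478) for the high dose, and -1.64 and -0.90 without water with TST replicate 2. Over the 8 arrays Ptgds had r = -0.31 (rho -0.31) with the mean of the oligodendrocyte markers, r = -0.51 (rho -0.52) with that of the choroid plexus markers and r = 0.735 (rho 0.62) with that of the astrocyte markers. These were -0.02, -0.24 and 0.57 when, for each marker mean, the 2 arrays farthest from its own median were left out. The part of these cell types in the Ptgds values was not tested. Values above 16, the limit of a 16-bit scanner, occur on 3 of the water arrays, so the size of these differences is that of the deposited scale.

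Slc6a13 (GAT2) carries GABA and taurine across the membranes of leptomeningeal cells. It was at 9.47 and 8.79 in water without TST and at 9.07 and 9.10 in water with TST. Both low-dose arrays were at 8.61 and both high-dose arrays at 9.04, equal to the 2 decimals deposited. The low dose was the lowest group, at -0.48 (SE 0.267) against water with TST, while the high dose differed from it by -0.045 (-0.46 and -0.03 without water with TST replicate 2). The high-dose arrays lay within the range of the 2 water groups.

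Igf2, an imprinted growth factor secreted by the meninges and choroid plexus, varied little. It was at 12.18 and 11.85 in water without TST, 12.54 and 12.25 in water with TST, 11.82 and 12.41 in low-dose RE and 12.19 and 12.04 in high-dose RE. Both doses were at -0.28 (SE 0.278) against water with TST, and low-dose replicate 2 lay between the 2 water with TST arrays. Without low-dose replicate 1 the low-dose difference was 0.015, and without water with TST replicate 2 both were -0.425. Igfbp2, which binds the insulin-like growth factors, went the other way. It was lowest on water with TST replicate 2, at 11.01, and between 11.74 and 12.42 on all other arrays. Its differences from water with TST, 0.51 and 0.685 (SE 0.346 each), were 0.015 and 0.19 without that array. Water with TST replicate 2 was also the lowest array in choroid plexus markers, with their mean over 13 genes at -1.20 from its 8-array mean; the transthyretin gene Ttr was at 13.98 there and between 16.82 and 17.91 elsewhere. The part of choroid plexus content in the Igfbp2 values was not tested.

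**Figure D1:**
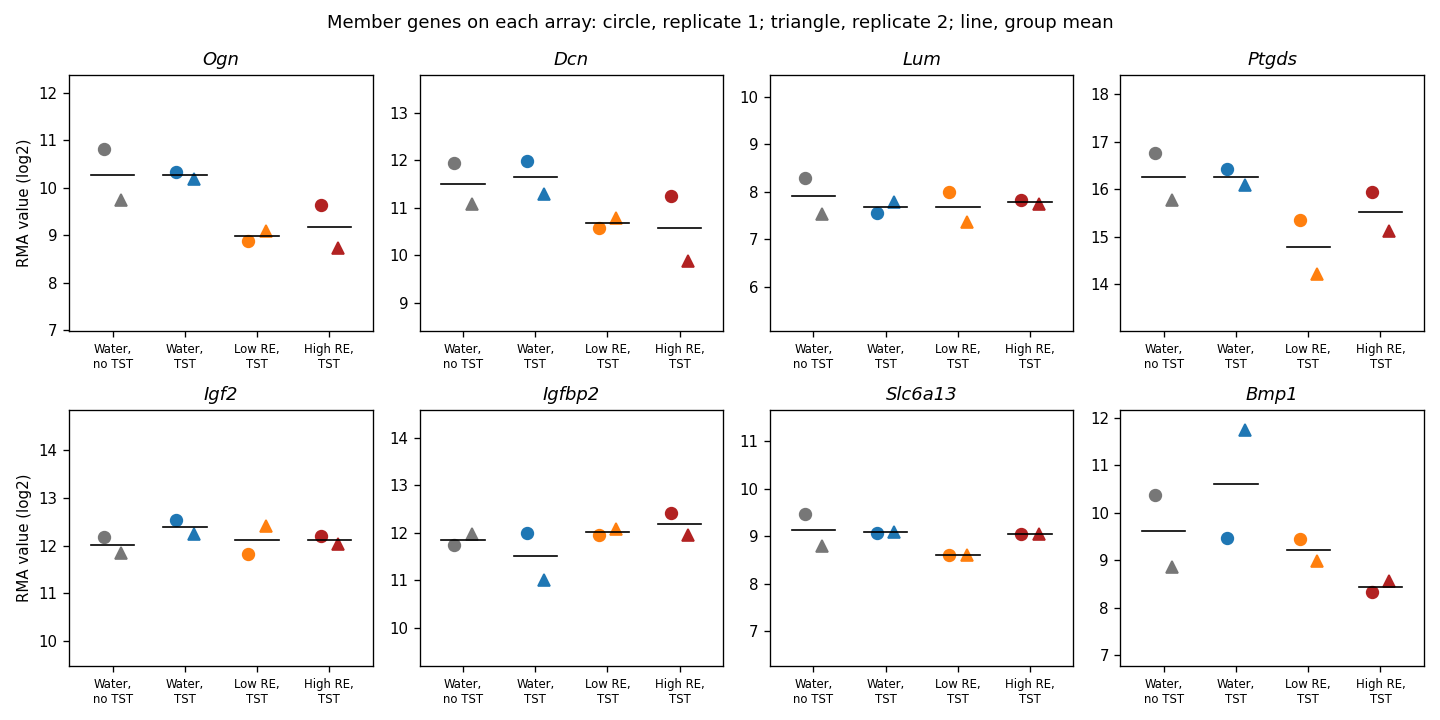
RMA values (log2, vertical axis) of the 8 genes on each array of the 4 groups; circles are replicate 1, triangles replicate 2, horizontal lines group means, and every panel spans the same number of log2 units. Ogn is lower on all 4 RE arrays than on all 4 water arrays, Lum and Igf2 overlap between groups, Igfbp2 is low and Bmp1 high on water with TST replicate 2.

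In all, 5 of the 8 genes (Ogn, Dcn, Ptgds, Slc6a13 and Bmp1) were lower on all 4 extract arrays than on both water with TST arrays, a pattern that held for 5.77% of all 22206 rows. The genes were chosen in part for this, so the count is a description only. The distance between the lowest water with TST array and the highest extract array was 0.56 for Ogn and 0.15 for Ptgds, but only 0.04, 0.03 and 0.02 for Dcn, Slc6a13 and Bmp1. Igf2 was just outside, at -0.16; Lum, at -0.44, and Igfbp2, at -1.41, were farther off. Within the wider list of fibroblast genes described further on, the collagen gene Col1a2 was just inside at 0.01 and the transporter gene Slc47a1 just outside at -0.07.

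For the effect of TST in water-treated mice, the differences of the 8 genes ranged from -0.35 (Igfbp2) to 0.98 (Bmp1), and those of Ogn, Ptgds and Slc6a13 lay between -0.045 and -0.01. These near-zero values rest on pairs that differ widely. Water without TST replicate 1 was the highest of all arrays for Ogn, Lum, Ptgds and Slc6a13, and replicate 2 the lowest water array for Ogn, Dcn, Lum, Ptgds, Igf2, Slc6a13 and Bmp1. With water without TST replicate 1 left out, the TST difference was 0.515 for Ogn, 0.57 for Dcn and 0.49 for Ptgds; with replicate 2 left out, it was -0.545, -0.30 and -0.51. Without both arrays high in cerebellar markers, which leaves 1 array in each water group, the values were 0.59 for Ogn, 0.92 for Dcn, 0.66 for Ptgds, 0.69 for Igf2, 0.28 for Slc6a13, 0.60 for Bmp1, 0.03 for Igfbp2 and 0.02 for Lum. Igf2 was the 1 gene of the 8 whose TST difference kept its sign: both water with TST arrays were above both without, and the difference was 0.38, with 0.215 to 0.545 when 1 array was left out. The other 7 differences changed sign when 1 array was left out.

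**Figure D2:**
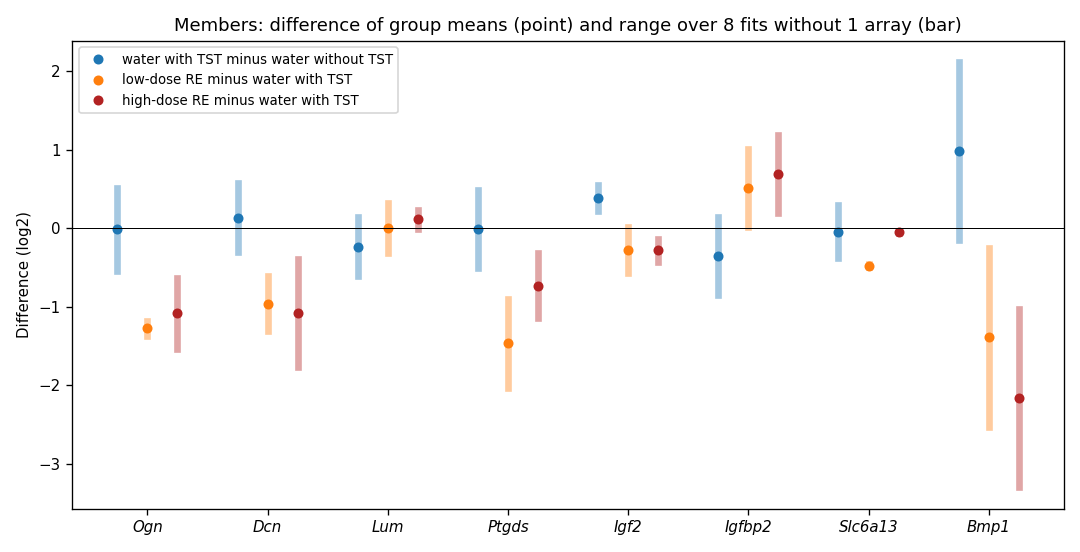
Differences of group means (log2, vertical axis) for the 8 genes in 3 contrasts; points are the fit of all 8 arrays and bars span the lowest to highest value over the 8 fits that each leave out 1 array. For Ogn, Dcn and Ptgds the extract bars stay below 0 and the TST bars cross it; Bmp1 has the longest bars.

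The 2 RE doses were compared directly, a difference of means that does not involve the water arrays. Its limma SE and p-value do draw on them, since the spread was estimated from all 8 arrays. The RE values were also in view when the 8 genes were chosen. By limma, 0 of the 8 genes passed the study's threshold (fold change above 1.2 with an unadjusted p under 0.05), against 1.91% of all rows (0.968% lower, 0.946% higher), and 0 had an unadjusted p under 0.05. The methods' analysis of variance called 0 of the 7 genes it could test, Slc6a13 having no spread within either pair. High minus low dose was 0.735 for Ptgds (SE 0.478, limma adjusted p = 1, 95% interval -0.36 to 1.83) and 0.43 for Slc6a13 (SE 0.267, interval -0.18 to 1.04). Bmp1 was at -0.77 (interval -2.40 to 0.86). Ogn was at 0.19 (interval -0.74 to 1.12) and Dcn at -0.115 (interval -1.22 to 0.99). Lum, Igf2 and Igfbp2 were at 0.11, 0 and 0.175. Intervals this wide do not show that the doses acted alike. For the alternative fits that follow, the share of all rows passing was not computed. The Ptgds difference was 1.30 and past the threshold without low-dose replicate 1, and 0.17 without replicate 2. Bmp1 passed it in the fit of the 2 RE groups alone and in the fit without both arrays high in cerebellar markers, at the same -0.77.

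A wider list of 28 genes known from meningeal and perivascular fibroblasts, none of them among the 8, was used to ask whether the same cells' other transcripts ran with them. It was drawn up with earlier results of these data known, so its direction is not independent evidence. All 28 were measured. On low-dose RE the list's mean lay -0.12 and -0.13 from its 8-array mean, on high-dose RE -0.09 and -0.16, on water with TST 0.21 and 0.12, and on water without TST 0.23 and -0.06. All 4 extract arrays were below all 4 water arrays in this mean. Against water with TST, 22 of 28 genes were lower with the low dose (median -0.34, where the median of all rows was 0.015 and 47.6% were below 0) and 24 of 28 with the high dose (median -0.24, where all rows had 0.01 and 48.3% were below 0). The 2 comparisons share their water arrays. Of the 28, 9 (32.1%) were lower on all 4 extract arrays than on both water with TST arrays, against 5.77% of all rows: Bgn, Efemp1, Slc13a3, Aldh1a2, Slc22a6, Slc13a4, Rdh10, Col1a2 and Foxc2. Other cell type lists had shares above that of all rows too, with 3 of 10 endothelial (30%), 3 of 12 mural cell (25%), 2 of 8 astrocyte (25%) and 2 of 9 cerebellar genes (22.2%), and the difference between lists was not tested. The choroid plexus, oligodendrocyte, border macrophage, ependymal and forebrain lists had 0.

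Few of these genes passed the study's threshold singly. With the low dose 2 of 28 did, both lower, against 3.54% of all rows (1.61% lower, 1.94% higher). With the high dose 3 of 28 did, all lower, against 3.17% (1.51% lower, 1.67% higher). Bgn (biglycan), the closest relative of Dcn, was at 7.0 and 7.44 in water without TST, 7.57 and 7.33 in water with TST, 6.66 and 6.61 in low-dose RE and 6.89 and 6.86 in high-dose RE. Every extract array was below every water array. It fell by 0.815 with the low dose (SE 0.243, limma adjusted p = 0.946), a call kept in all 16 alternatives, and by 0.575 with the high dose (SE 0.243, adjusted p = 0.973), a call lost in 8 of 16, as when water with TST replicate 1 (-0.455) or any 1 RE array was left out. Efemp1 (fibulin 3), an elastic-fibre matrix gene, was at -0.90 (SE 0.370) with the high dose and missed the threshold when water with TST replicate 2 (-0.76) or either high-dose array was left out.

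Slc13a3, a dicarboxylate transporter gene, was at 7.64 and 7.54 in water without TST and 8.15 and 8.51 in water with TST. It was at 7.86 and 7.30 in low-dose RE and 7.20 and 7.83 in high-dose RE. The water with TST arrays were the highest, and the other 3 groups overlapped. It passed the threshold in 3 contrasts, at 0.74 for TST, -0.75 for the low and -0.815 for the high dose (SE 0.308 each), and in none of the 3 without water with TST replicate 2 (0.56, -0.57 and -0.635). The methods' analysis of variance made none of the 3 calls. The low-dose call was also lost without either water without TST array or low-dose replicate 2, the high-dose call without high-dose replicate 1, and the TST call without either water without TST array.

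Among those not past the threshold, the organic anion transporter gene Slc22a6 was at -0.96 and -1.02 (SE 0.451 each) and the sulfate transporter gene Slc13a4 at -0.88 and -0.73 (SE 0.402 each). The retinoic acid synthesis gene Aldh1a2 was at -0.615 and -0.535 (SE 0.313 each). Of the fibrillar collagen genes, Col1a2 was at -0.62 and -0.24 (SE 0.285 each) and Col1a1 at -0.235 and -0.055 (SE 0.334 each). Col3a1 was at -0.085 and -0.015 (SE 0.339 each). Differences between these genes were not tested. Col3a1 was dim, with means of 4.635 in low-dose RE and 4.72 in water with TST, where array medians were 7.45 to 7.51. The forkhead regulator Foxc1, needed for meningeal development, was at -0.32 and -0.245 (SE 0.378 each). By limma 0 rows of the table passed an adjusted p of 0.05 in any of the 4 contrasts, with 567, 787, 705 and 425 rows at an unadjusted p under 0.05 for TST, low dose, high dose and high minus low dose. The analysis of variance also called 0 after adjustment, with 783, 619, 847 and 812 at the unadjusted limit. For TST, 14 of 28 list genes were lower (49.4% of all rows) and 1 passed, higher (2.55% of all rows, 1.26% lower and 1.29% higher). For high minus low dose 11 of 28 were lower (50.4% of all rows) and 0 passed (1.91% of all rows).

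Leaving out single arrays moved these counts but not the list's direction under extract. The low-dose count was 5 without water with TST replicate 1 and 4 without replicate 2, and the high-dose count 1 without either high-dose array. The share of all rows passing was not computed for the fits that left out arrays, so these counts have no background beside them. Without both arrays high in cerebellar markers, the medians of the 28 genes were -0.25 for the low and -0.24 for the high dose. In that fit the median for TST was 0.14.

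**Figure D3:**
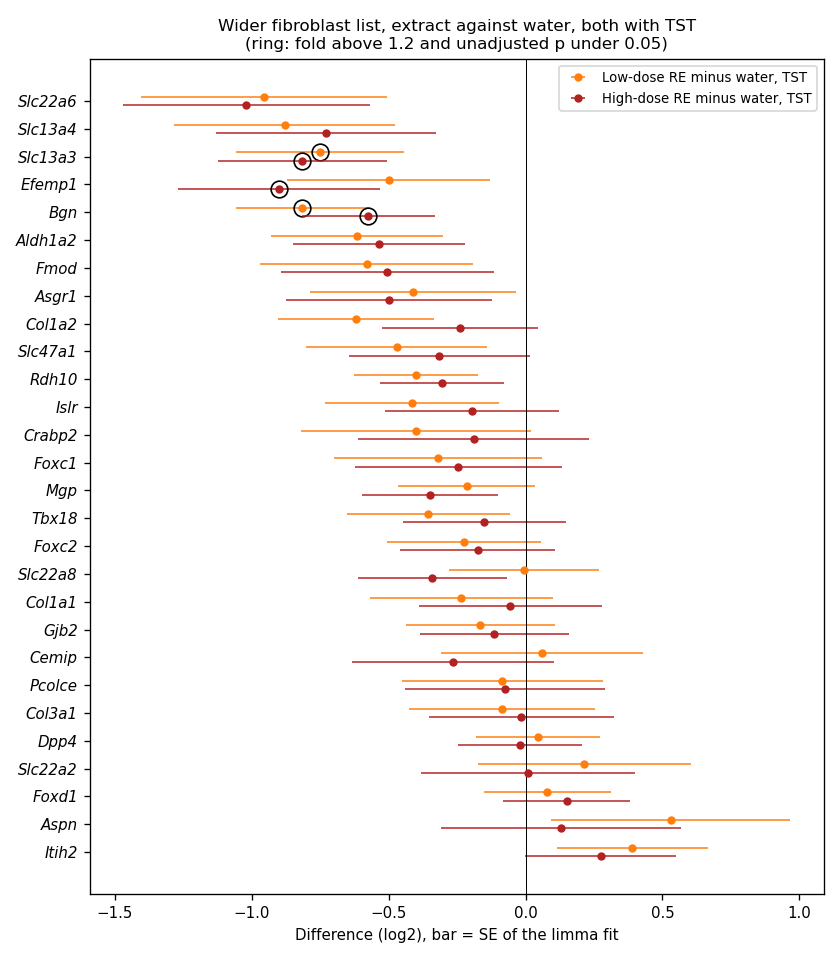
Differences (log2, horizontal axis) of the 28 further fibroblast genes for each RE dose minus water, both with TST; bars are the standard error of the limma fit and rings mark genes past the study's threshold. Most points lie left of 0 (22 low-dose and 24 high-dose), with Slc22a6, Slc13a4, Slc13a3, Efemp1 and Bgn farthest.

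Among other small leucine-rich proteoglycans, 13 genes of which Bgn, Fmod and Aspn are also on the wider list, 8 were lower with the low and 7 with the high dose, against 47.6% and 48.3% of all rows. The threshold was passed by 3 and 2, all lower, where 1.61% and 1.51% of all rows passed as lower. Besides Bgn these were Epyc and Omd. Epyc (epiphycan) lies in the gene cluster that holds Dcn and Lum. It was at 6.09 and 5.42 in water without TST, 6.33 and 6.34 in water with TST, 5.0 and 5.35 in low-dose RE and 5.67 and 5.28 in high-dose RE, and every extract array was below both water with TST arrays. It fell by 1.16 with the low dose (SE 0.295, limma adjusted p = 0.946), kept in all 16 alternatives, and by 0.86 with the high dose, lost without high-dose replicate 2 (-0.665). Omd (osteomodulin), a neighbour of Ogn, fell by 1.305 with the low dose (SE 0.429), a call lost without water with TST replicate 2 (-1.095) or low-dose replicate 2 (-1.22). With the high dose it was at -0.725. Epyc on all arrays, and Omd in its group means with TST (4.885 to 6.19), lay below the array medians of 7.45 to 7.51. Without detection calls it is not known whether these 2 rows measured transcripts above background. Of the other genes of these 2 clusters, Aspn was at 0.53 and 0.13 (SE 0.437 each) and Ecm2 at -0.17 and -0.35 (SE 0.347 each), neither past the threshold. Kera lay between 3.14 and 3.43 on all arrays, near the lowest value of the table (2.76), where a fall could not be seen. For TST and for high minus low dose 0 of the 13 passed, where 2.55% and 1.91% of all rows did.

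The genes that process collagen, where Bmp1 acts, had no common direction: 7 of 15 measured were lower with the low and 6 with the high dose (47.6% and 48.3% of all rows), and 2 passed with each dose (3.54% and 3.17% of all rows). P4ha1, a prolyl hydroxylase subunit gene, rose by 0.985 and 1.325 (SE 0.352 each). It was at 10.51 on water with TST replicate 2 and between 11.43 and 12.61 on the rest; without that array it was at 0.505 with the low dose, no longer past the threshold, and 0.845 with the high dose, still past it. The low-dose call was also lost without either low-dose array, and the methods' analysis of variance made neither call. The lysyl oxidase relative Loxl3 rose by 0.83 with the low dose (SE 0.270), lost without water with TST replicate 2 (0.72) or low-dose replicate 1 (0.75). The lysyl hydroxylase gene Plod2 was at -0.685 with the high dose (SE 0.299), a call lost in 12 of 16 alternatives, with -0.465 without water with TST replicate 2 and -0.35 without high-dose replicate 1. For TST and high minus low dose 0 of 15 passed, where 2.55% and 1.91% of all rows did.

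In the insulin-like growth factor system, 15 genes besides Igf2 and Igfbp2, 9 were lower with the low and 10 with the high dose (47.6% and 48.3% of all rows). Igfbp5, a further binding protein gene, was the 1 that passed, in 3 contrasts: TST (2.55% of all rows passed), low dose (3.54%) and high minus low dose (1.91%). It was at 11.00 and 10.59 in water without TST, 11.61 and 11.94 in water with TST, 11.18 and 11.03 in low-dose RE and 11.64 and 11.84 in high-dose RE. It was higher in water with TST and high-dose RE than in the other 2 groups, with no overlap. It rose by 0.98 with TST (SE 0.253), fell by 0.67 with the low dose, did not differ past the threshold with the high dose (-0.035) and was 0.635 higher with the high than the low dose. The low-dose call was lost without water with TST replicate 2 (-0.505) or low-dose replicate 2 (-0.595), and the dose call without any 1 RE array; the methods' analysis of variance did not call the TST and low-dose differences.

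Of 11 prostaglandin genes besides Ptgds, 6 were lower with the low and 4 with the high dose (47.6% and 48.3% of all rows), and 1 passed, with the high dose (3.17% of all rows). The prostaglandin-degrading enzyme gene Hpgd rose by 1.04 with the high dose (SE 0.368) and missed the threshold when replicate 2 of water with TST (0.945) or of high-dose RE (0.715) was left out, when both arrays high in cerebellar markers were left out (0.945), and by the methods' analysis of variance. Of 6 GABA, taurine, creatine and betaine handling genes besides Slc6a13, 5 were lower with the low and 4 with the high dose (47.6% and 48.3% of all rows), and 0 passed with either (3.54% and 3.17% of all rows). The creatine transporter gene Slc6a8 rose by 0.75 with TST (SE 0.318) in this fit; the call was lost in 8 of 16 alternatives, among them the fits without water with TST replicate 2 (0.52), without water without TST replicate 2 (0.53) and without either low-dose array.

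Over the 8 arrays Ogn and Dcn had r = 0.932 (rho 0.952), Ogn and Ptgds r = 0.857 (rho 0.905), and Ogn and Slc6a13 r = 0.745 (rho 0.747). Without the 2 arrays farthest from the median of Ogn these were 0.907, 0.803 and 0.896. Ogn had r = 0.339 with Lum, 0.407 with Igf2 and -0.378 with Igfbp2. The points share arrays and the genes were chosen together, so these are descriptions. Of 9981 other genes with a mean above the median of all values, the 10 most like the mean of the 8 genes had r between 0.889 and 0.953. They were Slc6a20a, Aebp1, Cenpc1, Lrrc40, Ephx1, Cep295, Atl3, Medag, Copz1 and Qrsl1. The proline transporter gene Slc6a20a (r = 0.953, rho 0.826) was at 11.13 and 9.93 in water without TST, 10.89 and 10.75 in water with TST, and between 10.00 and 10.24 on the 4 RE arrays. Aebp1, a collagen-binding matrix gene (r = 0.944, rho 0.881), was at 8.58 and 7.31, then 8.19 and 7.67, then between 6.78 and 7.32. Without the 2 arrays farthest from the median of the mean of the 8 genes, r was 0.886 and 0.941. Several others, such as the centromere gene Cenpc1 (r = 0.942), have no known tie to fibroblasts.

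Markers of other cell types were set beside these values. The mean of 10 endothelial genes, with Slc2a1 and Ly6c1 the highest, deviated by 0.07 and 0.15 on the water with TST arrays from its mean over all arrays, by 0.10 and -0.22 on low-dose RE and -0.16 and -0.07 on high-dose RE. That of 12 mural cell genes, led by Vtn and Rgs5, was 0.03 to 0.26 on water with TST and -0.06 to 0.05 on the 4 RE arrays. Astrocyte markers (8 genes, led by Slc1a2 and Gja1) were at -0.03 and 0.41 on water with TST at -0.03 and -0.47 on low-dose RE and at -0.03 and 0.01 on high-dose RE. The means of 7 border macrophage genes (Mrc1, Cbr2) lay between -0.18 and 0.22 over all arrays, those of 4 ependymal genes (Tmem212, Ccdc153) between -0.34 and 0.29, and those of 9 oligodendrocyte genes (Mbp, Mobp) between -0.31 and 0.33. The erythrocyte list had 1 measured gene, Alas2, at 6.48 to 7.25. Endothelial and mural markers were thus higher on water with TST than on most RE arrays, as the fibroblast genes were, and their part in the result was not tested.

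**Figure D4:**
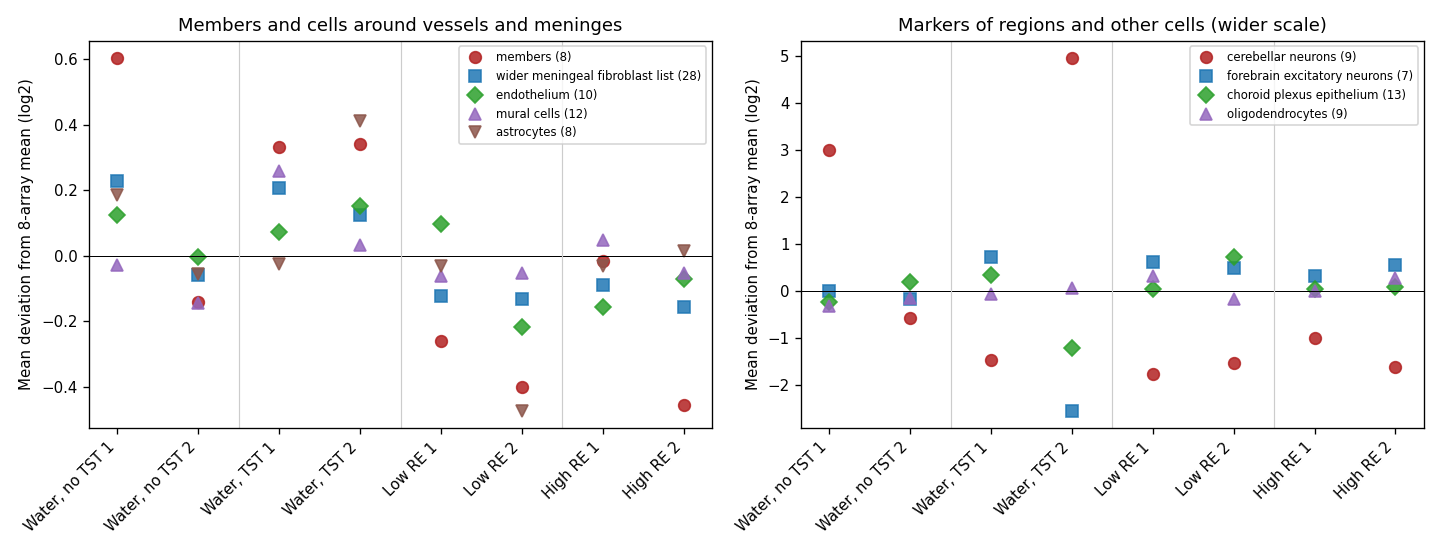
Mean deviation of each gene list from its own 8-array mean (log2, vertical axis) on each array, with the number of measured genes in brackets; the 2 panels have different scales. The means of the 8 genes and of the 28 further fibroblast genes are above 0 on both water with TST arrays. They are below 0 on all 4 RE arrays, a direction for which the 8 genes were in part chosen. On high-dose RE replicate 1 the mean of the 8 is only -0.015, and 6 of the 8 are above their own means there. Cerebellar markers peak at 4.95 on water with TST replicate 2 and 3.0 on water without TST replicate 1.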

How the data were processed

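Each of the 8 brain RNA samples was hybridized to 1 Clariom S array. The authors normalized them by RMA with Transcriptome Analysis Console 4.0.1, per the series' design text, and deposited log2 values, which were used unchanged. They run from 2.76 to 19.79, and 1359 exceed 16, the limit of a 16-bit scanner, for reasons not given in the sources used here. Platform annotation named 19572 of 22206 rows with 1 symbol and left 2634 unnamed; all 19572 matched the gene table by identifier. Genes with several rows were represented by the row with the highest mean.

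A group-means model was fitted to all rows and 8 arrays with limma 3.58.1 (R 4.3.3; lmFit, eBayes; 4 residual and 4.30 prior degrees of freedom), with two-sided tests and Benjamini-Hochberg adjustment over all rows; it was checked on simulated data. The study's threshold, per its design text, asks for a fold over 1.2, or 0.263 in log2 units, and an unadjusted p under 0.05. The 8 genes, the 16 other gene lists and the rule for named genes (the 8, listed genes past the threshold, the 2 highest markers of each cell type and the 10 genes most alike over the arrays) were chosen with earlier results of these data known. A few further list genes were named after their values were seen. Alternatives were a replicate block, fitting just the 2 groups at issue, a trended robust prior, dropping the 25% dimmest rows, quantile normalization, the methods' analysis of variance, averaging rows of a gene, leaving out each array, and, added after the data were seen, leaving out both arrays high in cerebellar markers. Where 1 array of a group remained, its spread was taken from the other groups. Replicate numbers in the titles are not stated to pair samples.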

Additional observations from a re-analysis of the deposited data

How the results depend on the processing

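The count of the 28 further fibroblast genes past the study's threshold was 1 for TST, 2 for the low dose, 3 for the high dose and 0 for high minus low dose. With only the groups compared in the fit, the low-dose count was 1 and 1 of the 8 genes, Bmp1, passed for high minus low dose, where 0 did in the fit of all arrays. With quantile normalization the low-dose count was 4. Leaving out 1 array gave 0 to 3 for TST, 2 to 5 for the low dose, 1 to 3 for the high dose, 0 to 2 for high minus low dose, and 0 to 1 of the 8 genes. Leaving out both arrays high in cerebellar markers changed the counts for TST, low and high dose, and the call of Bmp1 for high minus low dose. The share of all rows passing was not computed for the fits that left out arrays, the fit of only the groups compared or quantile normalization. The counts and calls from those fits thus have no background beside them. With the replicate block Slc13a3 was not called for TST or the low dose, the TST count was 0, the low- and high-dose counts were 3 and 3, and 1 of the 8 genes, Ptgds, passed for high minus low dose. Same-numbered arrays had deviations correlated between -0.293 and 0.169 over the 6 pairs of groups, so the numbers were not taken to pair the samples; over all rows the block moved the calls from 567, 787, 705 and 425 to 497, 702, 632 and 409. High minus low dose differences changed sign when 1 array was left out for Ogn (-0.26 to 0.64), Dcn (-0.80 to 0.57), Lum (-0.205 to 0.425) and Igfbp2 (-0.055 to 0.405). The cause of these shifts was not tested. The trended prior, the row filter, the analysis of variance and row averaging left each of these 5 counts within 1.5 times. The 2 arrays per group and the lack of a background measure limit what can be seen.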
